A study of Danio rerio with 12 samples.

Results

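Isolated CCCGGG sites are places in the zebrafish genome where the restriction sequence CCCGGG stands alone, with no other listed CCCGGG within 1000 bp on the same chromosome. Of 64466 CCCGGG sites listed in the deposited data, 44265 were isolated in this sense. The long arm of chromosome 4, from position 27000000 on, was left out, which kept 42797, and 1365 of those had at least 100 reads summed over the 12 libraries. These 1365 sites, 2.12% of all listed sites and 3.19% of the listed isolated ones, are described here. On the arm left out, 9 isolated sites reached that depth. The choice used the spacing of the sites and their depth over all libraries, and no methylation level and no group.

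DNA came from pools of 20 whole embryos of Danio rerio, of wild-type stock bought commercially and bred in the laboratory, at 72 hours post fertilisation. The assay was DREAM (digital restriction enzyme analysis of methylation), and the study compared embryos with and without sodium arsenite, a salt of trivalent arsenic. Control embryos (4 libraries) had no exposure, and exposed embryos received arsenite for 72 hours at 0.1 mM (4 libraries) or 1 mM (4 libraries). A pool mixes all cell types of the embryo, so an intermediate level cannot be told apart from a mixture of methylated and unmethylated cells or alleles. The design text speaks of quadruplicates and the labels' treatment protocol of experimental units in triplicate, and neither says whether pools of one group came from separate spawns. SDs and p-values with n = 4 therefore measure only the spread between these pools, which may be partly technical.

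Cytosine methylation in vertebrates sits mainly at CpG dinucleotides and covers most of the genome, while CpG-rich promoters are usually free of it. CCCGGG holds 1 central CpG. SmaI cuts the site only when this CpG is unmethylated and leaves fragments that start with GGG, and XmaI then cuts the methylated copies, whose fragments start with CCGGG after fill-in. The level of a site is the share of its reads that carry the methylated signature. Sequencing adapters are joined to the cut ends, so a fragment bounded by CCCGGG cuts is long where sites are far apart. Positions are in the danRer7 build, and a gene annotation of that build was not used here, so sites are given by position alone.

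The 12 libraries had 1425613 to 1822127 reads at the listed positions, of which isolated sites took 4.63 to 5.55%. In the spiked standard La168, the only standard summarised here, the methylated share was 0.215 to 0.920% in the control libraries and 0.285 to 0.496% at 0.1 mM. It was 2.57%, 0.823%, 1.78% and 0.497% in 1 mM libraries 1 to 4. Reads carried no molecular identifiers, so upper limits for a share of 0 (taken as 3 counts) and all count-based SDs reflect counting error alone.

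The 1365 isolated sites fell mostly into an unmethylated and a highly methylated set. At 695 sites (50.9%) the pooled level of the 12 libraries was under 10%, at 409 (30.0%) it was over 90%, and at 261 (19.1%) it lay between. Of the unmethylated sites, 571 were below 1% and 438 had no methylated read at all. At the other end, 60 sites had no unmethylated read. The median over all 1365 sites was 6.73%.

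Depth separated these sets. Most isolated sites were read little: 1160 (85.0%) had fewer than 300 reads in all 12 libraries together, and the median was 132 reads. The other 205 sites had 300 reads or more and held 83.3% of the 953265 reads, and the 10 deepest alone held 26.0%. Among the 1160 shallow sites 685 (59.1%) were under 10%, with a median level of 1.31%. Among the 205 deep sites only 10 (4.88%) were under 10% and 145 (70.7%) were over 90%, with a median of 96.6%. The split at 300 reads was chosen after the depths were seen.

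The mix of levels among these sites is therefore not that of isolated sites at large. Over all listed isolated sites the share under 10% was 1.67% from 12 to 49 reads, 10.9% from 50 to 99, 59.0% from 100 to under 150, 65.4% from there to under 200, 45.2% from there to under 300 and 3.80% from there to under 1000. Of the 16749 isolated sites with at least 20 reads, 9.00% were under 10% and 51.8% were over 90%. Of the unmethylated ones 46.1% reached 100 reads, against 4.72% of those over 90%. Unmethylated isolated sites thus passed the depth minimum more often than methylated ones did. Mean reads per site were compared in each of the 12 libraries over isolated sites with at least 20 and fewer than 300 summed reads. Those under 10% held 1.89 to 2.91 times as many reads as those over 90%. The cause of this difference in depth was not tested.

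**Figure D1:**
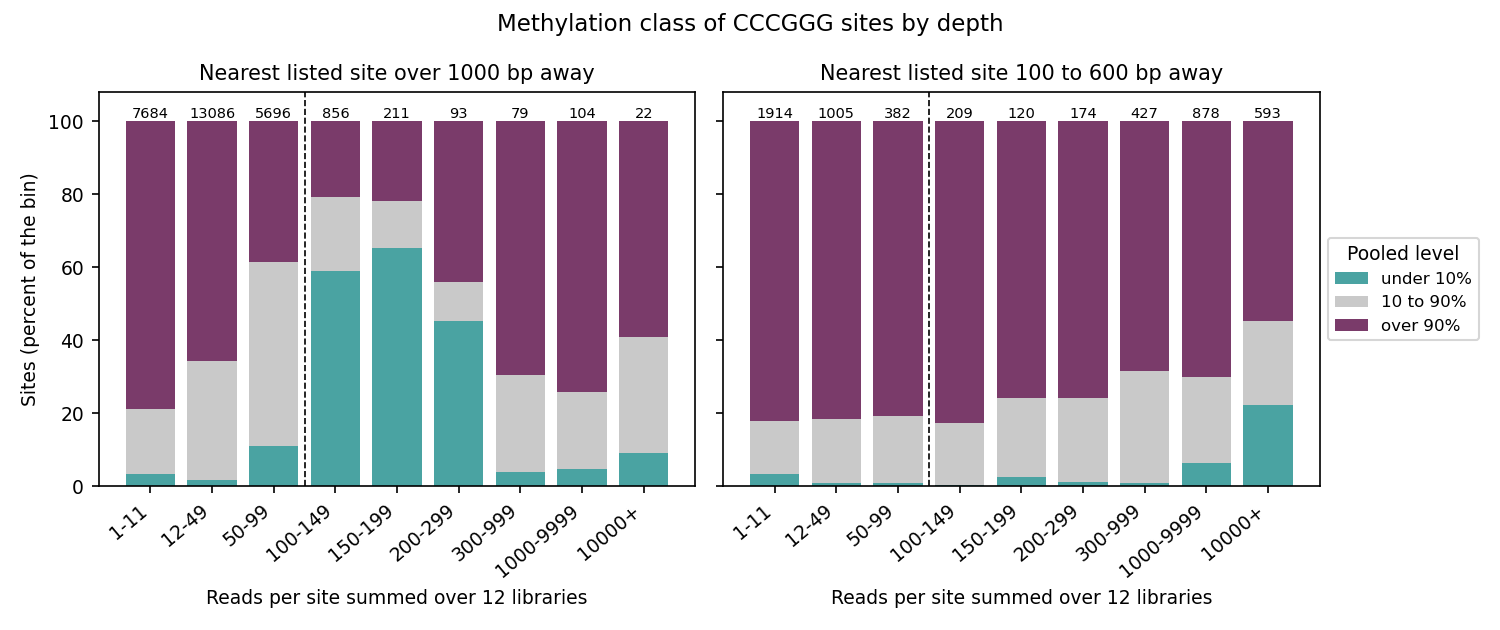
Share of sites (percent of each depth bin) with a pooled level under 10%, 10 to 90% and over 90%, for isolated sites (left) and sites with their nearest listed site at 100 to 600 bp (right), by reads summed over the 12 libraries. Numbers above the bars count sites and the dashed line marks 100 reads. Unmethylated sites made up 59.0% of isolated sites in the first bin right of that line but 3.80% in the bin that starts at 300 reads, while at 100 to 600 bp they reached 22.3% at 10000 reads or more.

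Values on either side of the limits were as follows. The nearest-spaced isolated sites lay at chromosome 16 position 340932, whose neighbour is 1006 bp away (105 reads, 77.1%), and at chromosome 6 position 8643158, whose neighbour is 1008 bp away (138 reads, 100%). Just outside, chromosome 12 position 23110912 has its neighbour at 1000 bp (9629 reads, 99.8%) and chromosome 18 position 41137205 at 997 bp (183 reads, 63.4%). With exactly 100 reads, chromosome 1 position 38579638 had a level of 7.00% and chromosome 1 position 47329638 a level of 0%, for which 100 reads allow up to 3.00%. With 99 reads, chromosome 1 position 25974533 stood at 77.8% and chromosome 2 position 84675 had 98 methylated reads.

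The most deeply read isolated sites showed how steady a level was from pool to pool. The site with the most reads, chromosome 7 position 36697640, had 14 methylated reads among 40711 and a level of 0.0344%, with no library above 0.102%. The next, chromosome 17 position 40102912, was methylated in all of its 36760 reads in all 12 libraries, and a count of 0 unmethylated reads allows a share of up to 0.00816%. Chromosome 14 position 34305254, with 29258 reads, was as free of methylation as the first site at 0.0342%. These neighbours in depth lay at opposite ends of the scale.

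Other deep sites were highly but not fully methylated. Chromosome 12 position 44371306 had a pooled level of 99.2% (21163 reads) and ranged from 98.4 to 99.6% over the 12 libraries. Chromosome 6 position 58702210 stood at 98.5% (19755 reads) and chromosome 18 position 49784749 at 98.1% (18941 reads). Chromosome 7 position 56453418 stood at 90.6% (19502 reads), with 89.2% in the lowest library and 93.8% in the highest. Controls overlapped with both exposed groups at each of these sites. At the chromosome 6 site the 4 libraries at 1 mM, from 98.58%, lay above the 4 at 0.1 mM, which reached 98.57%.

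Intermediate levels were kept in every pool. At chromosome 23 position 2346849 (19920 reads) the control libraries had 45.0%, 50.6%, 45.7% and 47.1%, the 0.1 mM libraries 44.1%, 48.7%, 45.6% and 46.4%, and the 1 mM libraries 46.9%, 44.6%, 46.8% and 47.1%. The groups overlapped, and all 12 pools of embryos lay between 44.1 and 50.6%. At chromosome 11 position 3474050 (23075 reads) the control libraries had 82.6%, 80.6%, 84.0% and 85.2%, the 0.1 mM libraries 85.6%, 83.2%, 87.4% and 86.8%, and the 1 mM libraries 86.0%, 85.4%, 85.2% and 85.7%. Control libraries 1 and 2 were the lowest, and the groups overlapped at this site too.

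At chromosome 17 position 35227591 the level was 67.0% (16112 reads) and ranged from 63.8 to 72.4%. Chromosome 21 position 29875068 was at 72.2% (11587 reads), chromosome 24 position 5333478 at 84.0% (14594 reads) and chromosome 24 position 3963355 at 87.8% (18951 reads). The last of these has a deep neighbour, with 16837 reads, 3770 bp away. The spread between pools at these sites was of the order that counting gives, but often above it: the replicate SD at chromosome 11 position 3474050 was 1.59 points against a binomial SD of 0.822, and at chromosome 17 position 35227591 it was 2.29 against 1.29.

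**Figure D2:**
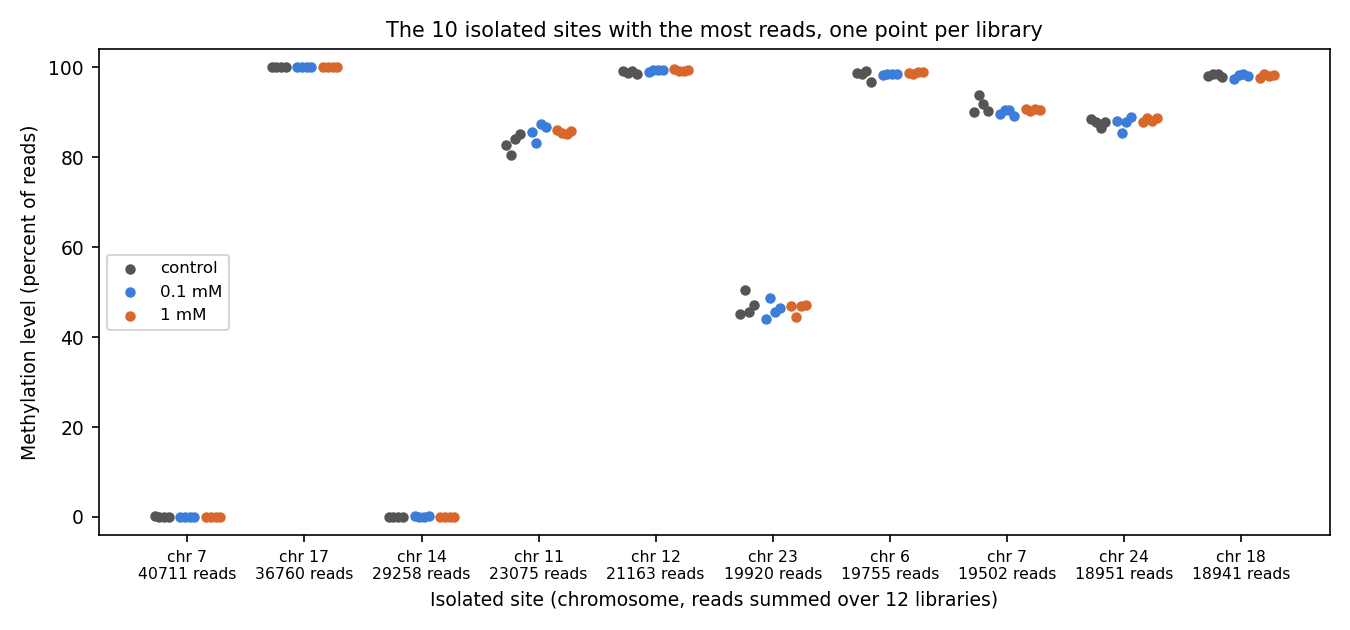
Methylation level (percent of reads) at the 10 isolated sites with the most reads, 1 point per library, coloured by group. A site near the middle of the scale, on chromosome 23, lay between 44.1 and 50.6% in all 12 libraries, and the sites at 0 and 100% showed almost no spread.

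Unmethylated sites with many reads were few. After the deep unmethylated sites on chromosomes 7 and 14 came chromosome 7 position 61527782 with 5 methylated reads of 8264 (0.0605%) and chromosome 2 position 48418036 with 6 of 8227 (0.0729%). The next in depth were partly methylated, with 4.33% at chromosome 21 position 13898263 (1731 reads) and 6.77% at chromosome 7 position 73473543 (1610 reads). At that last site the level ran from 2.29 to 11.1% over libraries of 60 to 253 reads.

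Isolated sites were spread over all 25 chromosomes, from 28 on chromosome 4, counted only below position 27000000, to 77 on chromosome 7. They made up between 2.09% of the listed isolated sites of chromosome 22 and 4.46% of those of chromosome 24. The median distance to the nearest listed site was 8859 bp, with quartiles at 3794 and 18380 bp. The share of sites under 10% was 42.2% where the nearest site was up to 2000 bp away, 51.0% from there to 5000 bp, 45.9% to 10000 bp, 55.0% to 20000 bp, 58.8% to 50000 bp and 48.0% beyond that. It followed no steady order with distance.

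The most remote of all was chromosome 5 position 25996854, 162448 bp from any listed site, with 1 methylated read among 128 (0.781%). Chromosome 9 position 33191763 (138929 bp; 100 reads) and chromosome 5 position 39480982 (133922 bp; 133 reads) had no methylated read, which allows up to 3.00% and 2.26%. Chromosome 12 position 24204508, at 112552 bp, had a level of 92.0% in 224 reads. Among the 4 most remote sites, 3 were unmethylated and 1 was methylated.

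The sites nearest to the isolated ones were mostly read little. In 1262 of 1365 cases (92.5%) the site had more reads than its nearest listed site, which had a median of 22 reads and none at all in 300 cases. The 205 deep sites had neighbours with a median of 18 reads. Chosen sites had at least 100 reads and their neighbours had no minimum, so this gap follows from the choice and is no result about the sites.

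Neighbours of unmethylated isolated sites were more often unmethylated at short distance than farther away. Neighbours of isolated sites over 90% were likewise more often over 90% at short distance. The level of the neighbour was taken for the 720 isolated sites whose neighbour had 20 reads or more. Of the 1365, 121 had another member of the set as their neighbour, so these pairs are not independent. Where an unmethylated isolated site had its neighbour within 2000 bp, the neighbour was under 10% in 51 of 70 cases (72.9%). This share was 21 of 72 (29.2%) from there to 5000 bp, 18 of 81 (22.2%) from there to 10000 bp and 29 of 164 (17.7%) beyond 10000 bp. Isolated sites over 90% had a neighbour under 10% in 2 of 35 (5.71%), 1 of 32 (3.13%), 3 of 46 (6.52%) and 6 of 77 cases (7.79%) over the same distances, and those of 10 to 90% in 6 of 32 (18.8%), 1 of 25 (4.00%), 4 of 30 (13.3%) and 5 of 56 (8.93%). Among the neighbours of unmethylated sites, 46 of 70 within 2000 bp were themselves members and so chosen by the depth minimum that unmethylated sites passed more often, against 11 of 72, 5 of 81 and 18 of 164 farther out. Isolated sites over 90% had a neighbour over 90% in 29 of 35 cases (82.9%) within 2000 bp. Farther out these were 23 of 32 (71.9%), 33 of 46 (71.7%) and 44 of 77 (57.1%). Of the neighbours of sites over 90%, 12 of 35 within 2000 bp were members, against 1 of 32, 5 of 46 and 4 of 77 farther out. These shares are descriptions and carry no test.

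**Figure D3:**
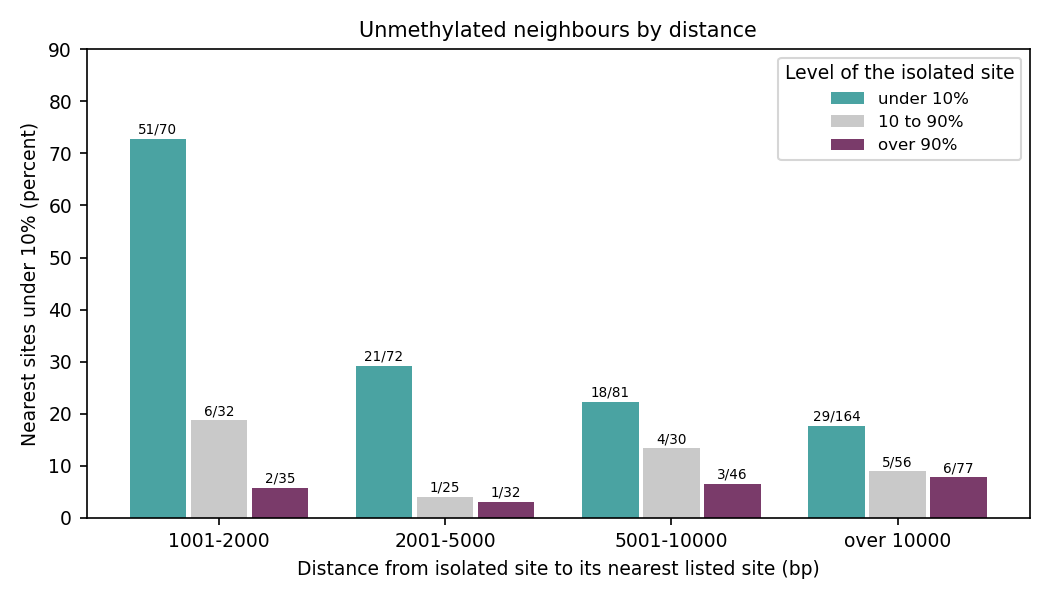
Percent of nearest listed sites with a level under 10%, by distance from the isolated site (bp) and by the level of the isolated site. Fractions above the bars give the number of such neighbours and of all neighbours with at least 20 reads. For unmethylated isolated sites the percentage was 72.9 within 2000 bp and 17.7 beyond 10000 bp.

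Isolated sites were then compared with the 2401 sites that had 100 reads or more and a neighbour 100 to 600 bp away. Over all depths, the isolated sites had a read-weighted level, the summed methylated reads over the summed reads of a library, of 71.6% against 67.4%. The difference was 4.21 points, was positive in 10 of 12 libraries and passed an exact two-sided sign-flip permutation test over the 12 libraries (p = 0.00391). All libraries read the same sites, so this test covers the spread between libraries and not the choice of sites. Both classes were also chosen by their reads in these same libraries, so the p-value says nothing about spacing itself. The other spacing classes lay above the isolated sites, at 75.0% for 418 sites with a neighbour under 100 bp away and 79.4% for 418 sites with one at over 600 and up to 1000 bp. Against the sites at 100 to 600 bp, called closer-spaced from here on, the direction differed by depth. The depth splits are given without a test, since they use the reads that chose the sites and were set, at 300 reads, after the depths were seen. Under 300 reads isolated sites stood at 34.4% and the closer-spaced sites at 90.6%, a difference of -56.2 points with isolated sites lower in 12 of 12 libraries. At 300 reads or more isolated sites stood at 79.3% against 67.3%, a difference of 12.0 points, with isolated sites higher in 12 of 12 libraries. Over all sites of fewer than 1000 reads the difference was -42.4 points.

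The make-up of the classes differed in the same way. Of the 503 closer-spaced sites with fewer than 300 reads, 6 were under 10%, against 685 of 1160 isolated ones. Of closer-spaced sites with at least 20 reads, those under 10% had a median of 17802.5 reads and those over 90% a median of 311. Among isolated sites with at least 20 reads the medians were 96 and 38. Over the 166 isolated sites and 1778 closer-spaced sites read 20 times or more in every library, plain means of the site levels were 84.4% and 79.5%, a difference of 4.87 points that was positive in 12 of 12 libraries.

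Arsenite and the level of isolated sites were examined next. The read-weighted level was 74.1%, 71.1%, 74.1% and 72.3% in control libraries 1 to 4, 71.9%, 73.0%, 75.5% and 72.2% at 0.1 mM, and 73.4%, 66.8%, 62.0% and 72.9% at 1 mM. The 1 mM libraries 2 and 3 were the lowest of all 12, and the other 2 lay within the range of the controls. The means were 72.9% ± 1.44 (SD, n = 4), 73.2% ± 1.62 (SD, n = 4) and 68.8% ± 5.44 (SD, n = 4). The difference of 1 mM from control was -4.16 points (95% interval -12.1 to 2.27) and did not pass the exact two-sided permutation test (p = 0.229, adjusted over 3 comparisons 0.386). Without 1 mM library 3 it was -1.89 points. At 0.1 mM the level was 0.238 points above that of the controls (95% interval -2.24 to 4.33), with p = 0.857 in the same exact permutation test. With 4 libraries against 4 the smallest p possible is 0.0286. The sites were chosen by their reads in these same libraries. Over all listed isolated sites, with no read minimum, the read-weighted levels lay closer together. They were 75.3% ± 0.501 for control, 75.5% ± 0.912 for 0.1 mM and 73.4% ± 2.50 for 1 mM (SD, n = 4 each).

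The low values of the 2 libraries went with a larger share of reads at shallow unmethylated sites. Of the reads at isolated sites, 20.3% in 1 mM library 3 and 15.8% in 1 mM library 2 lay at sites with fewer than 300 reads and a level under 10%, against 5.19 to 11.7% in the other 10 libraries. Weighting each site alike in every library, by its reads over the 12 libraries, removed the gap: over the 1343 sites read in every library the level was 71.5% ± 0.244 for control, 71.4% ± 0.121 for 0.1 mM and 71.5% ± 0.280 for 1 mM (SD over 4 libraries). The gap of 1 mM to the controls was then 0.0413 points, with a 95% interval of -0.618 to 0.444 and p = 0.943 in the exact permutation test. The deep sites held 83.3% of the reads of isolated sites, so these fixed weights rested mostly on them. Over the 205 deep sites the read-weighted level was 79.2% ± 0.865, 79.2% ± 0.609 and 79.3% ± 1.08 (SD, n = 4 each). Over the 1160 shallow sites it was 37.2% ± 2.81, 36.0% ± 3.11 and 30.0% ± 5.24 (SD, n = 4 each). There the difference of 1 mM from control was -7.17 points, in a split chosen after the depths were seen. It is given without a test, since these sites were chosen by their reads in these same libraries. Listed isolated sites under 100 reads, which were not members, stood at 78.3% ± 0.458 for control. They stood at 78.8% ± 0.485 for 0.1 mM and 77.6% ± 1.17 for 1 mM (SD, n = 4 each). Shallow methylated sites also had more reads in 1 mM libraries 2 and 3. Isolated sites over 90% with at least 20 and fewer than 300 reads had means of 5.18 and 6.29 reads there, against 2.44 to 4.35 in the other 10. For those under 10% the means were 13.5 and 18.3, against 4.66 to 9.25. The cause of the larger read share at shallow unmethylated sites in these 2 libraries was not tested.

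**Figure D4:**
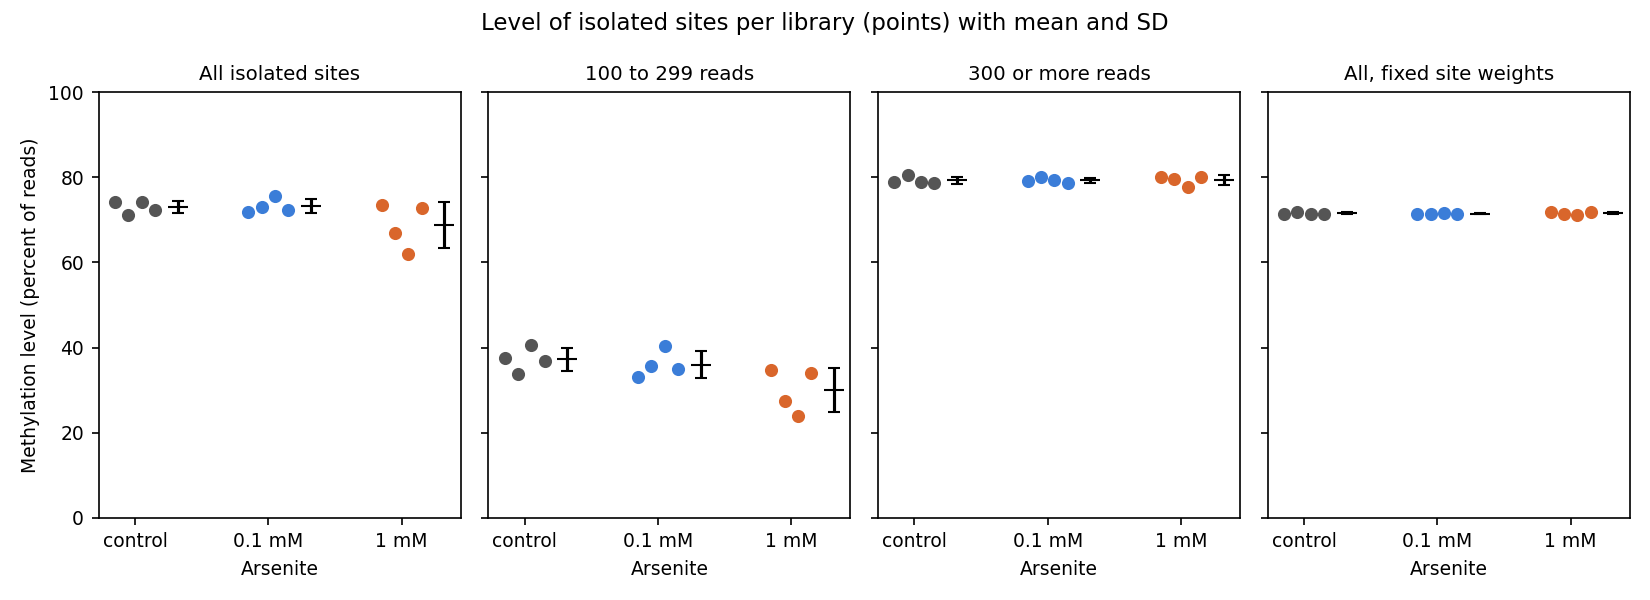
Methylation level (percent of reads) of isolated sites in each library (points) with the group mean and SD (n = 4), for all sites, sites under 300 reads, sites with 300 reads or more, and all sites with fixed weights. The 1 mM libraries 2 and 3, at 66.8 and 62.0%, lie below the rest in the first panel, and the 3 groups lie between 71.2 and 71.8% in the last.

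**Figure D5:**
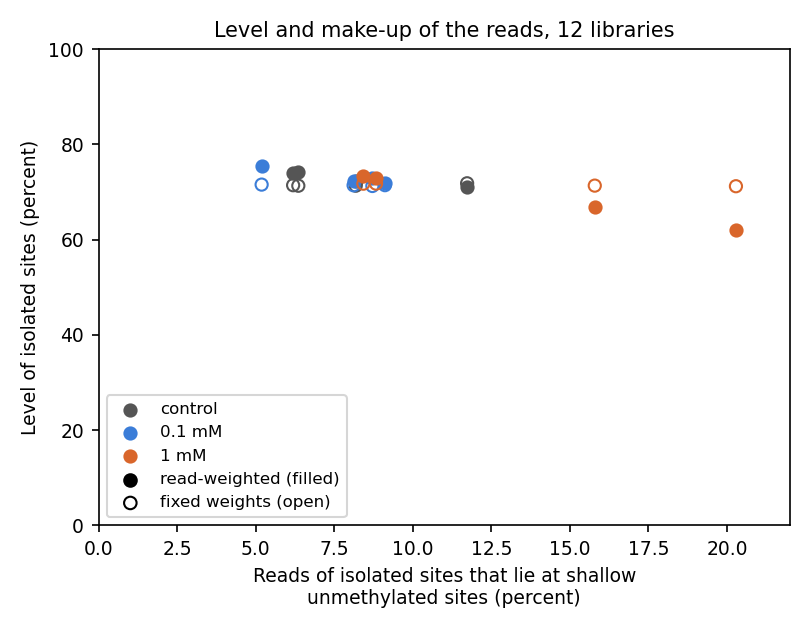
Level of isolated sites (percent) against the percent of their reads that lie at sites with fewer than 300 reads and a level under 10%, 1 pair of points per library. The read-weighted level (filled) is 62.0% in the library with 20.3% of such reads, while the level with fixed site weights (open) lies between 71.2 and 71.8% in all 12.

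The share of a library's reads at isolated sites averaged 4.91% ± 0.226 (SD, n = 4) for the controls. It averaged 4.88% ± 0.0461 (SD, n = 4) under 0.1 mM arsenite and 5.13% ± 0.368 (SD, n = 4) under 1 mM. The difference of 1 mM from control was 0.220 points, and 0.0793 without 1 mM library 3. It is given without a test, since the sites were chosen by their reads in these same libraries. Over all listed isolated sites, with no read minimum, the shares were 8.67% ± 1.40, 8.29% ± 0.700 and 10.4% ± 2.27 (SD over 4 libraries), and the difference of 1 mM from control was 1.68 points (exact permutation p = 0.229). The gap between isolated and closer-spaced sites was 5.61 points in controls and 1.27 at 1 mM, a difference between the groups of -4.34 points. This group difference was -2.39 points without 1 mM library 3. It too is given without a test, since both classes were chosen by their reads in these same libraries. Closer-spaced sites alone stood at 67.3% in controls and 67.5% at 1 mM. With 300 reads or more in both classes, the gap lay between 11.3 and 13.1 points in all 12 libraries.

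Of the 3 classes of level, methylated and intermediate sites had close means in all groups. Sites over 90% had means of 97.5% ± 0.140, 97.5% ± 0.107 and 97.6% ± 0.155 for control, 0.1 mM and 1 mM (SD over 4 libraries). Sites of 10 to 90% stood at 68.3% ± 0.550, 69.0% ± 1.09 and 67.5% ± 1.83 (SD, n = 4 each). None of these 6 comparisons passed, with exact permutation p of 0.229 or more.

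At the unmethylated isolated sites the residual level was 0.315%, 0.441%, 0.366% and 0.338% in control libraries 1 to 4, 0.549%, 0.386%, 0.357% and 0.340% at 0.1 mM, and 0.542%, 0.559%, 0.649% and 0.428% at 1 mM. Libraries 1, 2 and 3 at 1 mM lay above every control, and library 4 lay within the range of the controls. The means were 0.365% ± 0.0545, 0.408% ± 0.0961 and 0.545% ± 0.0909 (SD, n = 4 each). The difference of 1 mM from control, 0.179 points (95% interval -0.0129 to 0.334), did not pass the exact permutation test (p = 0.0571, adjusted over 9 class tests 0.386). With fixed site weights this difference was 0.135 points. That of 0.1 mM from control was 0.0428 read-weighted and 0.0607 with fixed weights, and that of 1 mM from 0.1 mM was 0.137 and 0.0740.

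In the 10 unmethylated sites with 300 reads or more, a split chosen after the data were seen, the controls had 0.220%, 0.269%, 0.233% and 0.191% and the 1 mM libraries 0.311%, 0.402%, 0.318% and 0.458%. The groups did not overlap and the difference was 0.144 points, which had an exact permutation p of 0.0286, or 0.0857 adjusted over 3 comparisons. The gap rested on few reads at 3 partly methylated sites of 1 to 10%, which held 219 of the 266 methylated reads of the 10 sites. At these 3 sites 53 of 1081 control reads and 95 of 1472 reads at 1 mM were methylated, and their share of the reads was larger at 1 mM. At the 7 sites below 1%, 15 of 29085 control reads and 17 of 28525 reads at 1 mM were methylated, or 0.0516% and 0.0596%. In the unmethylated sites with fewer reads the means were 0.536% and 0.660% (exact permutation p = 0.257). In closer-spaced unmethylated sites they were 0.269% ± 0.0306 in controls and 0.263% ± 0.0270 at 1 mM (SD, n = 4 each). The methylated share of the spiked standard La168 was highest in 1 mM libraries 1 and 3, which had the lowest residual levels of the 1 mM group at the 10 deeper sites. At the 685 unmethylated sites with fewer reads the order within the 1 mM group was that of La168. There 1 mM libraries 1 to 4 had 0.805%, 0.647%, 0.794% and 0.394%. Within the controls and within 0.1 mM the order differed from that of La168. The highest level of all 12 was 0.825% in 0.1 mM library 1, where La168 was at 0.285%. Control library 4 had 0.525%, with La168 at 0.920%. A link between the standard and the residual level was not tested.

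Single sites were tested with edgeR's quasi-likelihood F test over all 4052 sites with 100 reads or more and reads of both kinds, of which 867 were isolated sites. The other 498 isolated sites had reads of 1 kind only. No isolated site had a Benjamini-Hochberg adjusted p under 0.05 in any of the 3 comparisons. The percentages called among all sites tested were 0.222% for 1 mM against control, 0.222% for 0.1 mM against control and 0.197% for 1 mM against 0.1 mM. At an unadjusted p under 0.05 edgeR had 35 isolated sites (4.04%) in the first, against 4.79% of all sites tested, 35 (4.04%) in the second, against 5.33%, and 41 (4.73%) in the last, against 4.96%. With limma on log2 odds, 0 of 150 isolated sites passed after adjustment, and 6 (4.00%), 13 (8.67%) and 13 (8.67%) had an unadjusted p under 0.05, against 4.62%, 5.07% and 5.12% of all 2228 sites in that fit.

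Of the 166 isolated sites read 20 times or more in every library, 2 (1.20%) had groups that did not overlap between 1 mM and control, 4 (2.41%) between 0.1 mM and control, and 9 (5.42%) between 1 mM and 0.1 mM. Among all 2286 sites of that depth these percentages were 1.92%, 2.19% and 2.41%. The exposed or more exposed group was the higher one in 1 of the 2, 1 of the 4 and 8 of the 9. Among all sites without overlap it was the higher one in 27 of 44, 30 of 50 and 38 of 55. These were 1.18%, 1.31% and 1.66% of the 2286 sites. Group means differed by 10 points or more at 0, 1 and 1 of the 166 sites, and at 11 (0.481%), 9 (0.394%) and 7 (0.306%) of the 2286.

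The sites with the smallest p in the comparison of 1 mM with control did not pass. At chromosome 9 position 10449064 (6789 reads) the controls had 96.5%, 94.3%, 95.2% and 94.9% and the 1 mM libraries 98.9%, 96.4%, 98.0% and 95.9%. The groups overlapped, the difference was 2.04 points and edgeR's adjusted p was 0.527. The others were shallow. Chromosome 18 position 33328837 was at 100% in the 4 controls and 79.6% ± 20.1 (SD, n = 4) at 1 mM in 179 reads (edgeR adjusted p = 0.505). Another site on that chromosome, at position 20761265 with 125 reads, was fully methylated in the controls and had 77.1% ± 8.96 (SD, n = 4) at 1 mM (edgeR adjusted p = 0.564). Chromosome 5 position 27207914 went from 62.7% ± 21.9 to 33.0% ± 9.98 (SD, n = 4 each) in 133 reads (edgeR adjusted p = 0.660).

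For 0.1 mM against control, chromosome 15 position 5257797 (1291 reads) had 98.5%, 97.8%, 98.4% and 98.9% in the controls and 96.5%, 90.6%, 95.2% and 92.9% at 0.1 mM. All 4 exposed libraries lay below all 4 controls, and edgeR's adjusted p was 0.407. Chromosome 20 position 21531160 (132 reads) had levels of 0%, 53.8%, 0% and 0% in the controls and 60.0%, 58.3%, 100% and 80.0% at 0.1 mM. Only 2 to 15 reads stood behind each of these values, and edgeR's adjusted p was 0.153. Without control library 2 it was 0.000461, the single call of an isolated site in any setting tried. Chromosome 18 position 20761265 fell short here too, at 74.0% ± 14.3 (SD, n = 4) under 0.1 mM (edgeR adjusted p = 0.360). So did chromosome 19 position 6885328, with 103 reads (edgeR adjusted p = 0.582).

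Between 1 mM and 0.1 mM the smallest p belonged to chromosome 20 position 26718976, which had 0% in the 4 libraries at 1 mM and 22.8% ± 26.0 (SD, n = 4) at 0.1 mM in 170 reads (edgeR adjusted p = 0.272). Chromosome 9 position 12414302 had 92.9% ± 4.79 (SD, n = 4) at 1 mM against 51.9% ± 35.4 (SD, n = 4) at 0.1 mM, in 142 reads (edgeR adjusted p = 0.297). At chromosome 14 position 34305254, the deep unmethylated site, no methylated read was seen at 1 mM and 0.0670% ± 0.0586 (SD, n = 4) of reads were methylated at 0.1 mM (edgeR adjusted p = 0.396). Chromosome 19 position 6885328 (103 reads) was again among the 4, at 37.0% ± 36.1 and 27.8% ± 48.4 (SD, n = 4 each), with an edgeR adjusted p of 0.463. The 0.1 mM libraries 1 to 4 held 5, 4, 1 and 9 reads there, at 0%, 0%, 100% and 11.1%. The 1 mM libraries held 3, 11, 23 and 17 reads, at 0%, 18.2%, 82.6% and 47.1%. The mean at 0.1 mM thus rested largely on 1 read.

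Depth bounds what such tests could show. In the 40 isolated sites of 10 to 90% read 20 times or more in every library the median SD between replicates was 4.43 points, against 3.72 from counting alone. In the 116 such sites over 90% it was 1.03 against 0.975, and in the 10 under 10% it was 0.293 against 0.344. Over all isolated sites, the median number of reads per site was between 7 and 23 in a single library.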

How the data were processed

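Reads per CCCGGG site were deposited by the authors for each of the 12 libraries, as methylated, unmethylated and total reads. The deposited columns were treated as estimated counts, since each ends with the authors' correction factor, which is not whole. All site values were whole. Raw and adjusted levels were deposited in percent. With 0.5 added to both kinds of read, the methylated share matched the raw level within 0.005 points and, once multiplied by the factor, the adjusted level within 0.0145 points. Levels given here are unadjusted shares of reads. Per the submitters' processing notes the genome was danRer7. The aligner is not given in the sources used here. Per the labels' protocols, 2.5 micrograms of DNA, 8 spiked standards and 12 PCR cycles were used.

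Spike and correction lines were removed. Library values were compared by exact two-sided permutation tests over 70 splits, with 95% intervals by inverting the test. Sites were fitted with edgeR 4.0.16 (R 4.3.3), with a term for each library's coverage and a group term on methylated reads, over all 12 libraries and with Benjamini-Hochberg adjustment, threshold 0.05. limma 3.58.1 on log2 odds (pseudocount 1) was an alternative. The edgeR fit was tested on simulated data. Only sites of 10 to 90% were changed there, so detection at unmethylated or highly methylated sites was not covered. The depositors' table of deeper sites was not used. Named sites are the 10 deepest, the 4 with the smallest p in each comparison, the 6 deepest at 10 to 90% and under 10%, the 4 farthest, and those beside each limit. The members and lists were chosen with earlier results of these data known. Other settings tried were the weighting of sites, the correction factor, distance and read minimums, the deepest sites, chromosome 4, each library and the replicate number. Summaries were made in Python 3.11.15 with scipy 1.17.1 and numpy 2.4.6.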

Additional observations from a re-analysis of the deposited data

Results flagged for a closer look

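Among 93 groups of 4 libraries looked at, for named sites read 20 times or more in every library and for the levels and read shares of whole sets, 5 held a library whose gap to the nearest other was past Dixon's 95% critical value for 4 samples. For independent groups of normal values chance flags about 1 in 20, or 4.65 here. Some of these groups share reads and some hold levels near 0 set by few reads, so that number is only a rough guide. At chromosome 2 position 48418036, 0.1 mM library 2 had 0.204% where the other 3 libraries of its group had no methylated read. At chromosome 7 position 61527782, 1 mM library 3 had 0.189% and the other 3 had none. Either value rests on 1 methylated read. At chromosome 23 position 2346849, 1 mM library 2 had 44.6% and the other 3 had 46.8 to 47.1%. At chromosome 24 position 5333478, 0.1 mM library 1 had 86.1%, above 83.2 to 83.6% in the rest of its group, and 1 mM library 3 had 81.7%, below 84.4 to 84.7% in the rest of its group.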

How the results depend on the processing

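Read-weighted differences in level between groups changed sign in some settings, and none of the changed values passed the exact permutation test. For 1 mM against control the difference of -4.16 points became 0.0413 with fixed site weights, 0.0693 as a plain mean over sites read 20 times or more in every library, 0.0743 at 300 reads or more, and 0.225 with 1 mM libraries 2 and 3 left out, a setting added after the data were seen. For 0.1 mM against control it became -0.0594, -0.00438 and -0.00295 in the first 3 settings and -1.19 under 300 reads, and for 1 mM against 0.1 mM it became 0.101, 0.0737 and 0.0773. The read share of isolated sites with 300 reads or more differed by -0.140, 0.0240 and -0.164 points in the 3 comparisons, and without 1 mM libraries 2 and 3 by -0.0768 from control and -0.0475 from 0.1 mM. The read share over all listed isolated sites differed by 1.68 points between 1 mM and control. The cause was not tested.

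For sites of 10 to 90%, fixed weights gave 0.0129, -0.0922 and 0.105, 1 mM against control was 0.0350 at 300 reads or more and 0.796 without 1 mM libraries 2 and 3, 1 mM against 0.1 mM was 0.126 without these, and 0.1 mM against control was -0.132 under 300 reads. For sites over 90% at that depth the differences of 1 mM were -0.243 from control and -0.0357 from 0.1 mM. For sites under 10% with 300 reads or more, a split chosen after the data were seen, the difference of 1 mM from control was 0.144. Its exact permutation p of 0.0286 is the smallest possible and was 0.0857 adjusted over 3 comparisons. As given above, this gap rested on few reads at 3 partly methylated sites. Isolated sites lay below closer-spaced ones by -42.4 points under 1000 reads and -56.2 under 300, and the group difference of that gap for 0.1 mM against control was -1.35 under 1000 reads.

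Leaving out 1 library at a time moved the difference of 1 mM from control between -5.71 and -1.89 for the level, 0.0793 and 0.355 for the read share, and -5.62 and -2.39 for the gap to closer-spaced sites. It moved the 0.1 mM difference from control between -0.538 and 0.664 for the level, -0.123 and 0.0599 for the read share, -0.00427 and 0.0680 for sites under 10%, and -0.846 and 1.005 for the gap to closer-spaced sites. The read share of 1 mM against 0.1 mM lay between 0.109 and 0.385. Sites under 10% differed between 1 mM and control by 0.145 to 0.218, the latter without 1 mM library 4 at an exact permutation p of 0.0286. Sites over 90% differed between 1 mM and 0.1 mM by 0.0689 to 0.194, the latter without 1 mM library 3 at the same p. With 3 libraries against 4 this is the smallest p possible, and neither p was adjusted. With no library left out, the exact permutation p was 0.0571 and 0.229, or 0.386 and 0.543 adjusted over the class tests. edgeR called 0 to 1 isolated sites for 0.1 mM against control, the 1 being chromosome 20 position 21531160, whose difference ran from 52.7 to 74.6 points. At chromosome 19 position 6885328 the difference of 1 mM from 0.1 mM ran from -6.03 to 33.3 and was -0.0747 without 0.1 mM library 1 or 2.

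Libraries with the same replicate number did not deviate together (r of -0.179 to 0.113). Whether same-numbered pools shared a spawn is not stated, and these correlations cannot decide it. With a replicate block the difference of 1 mM from control kept its -4.16 points, with an exact sign-flip permutation p of 0.250 where 0.125 is the smallest possible, and edgeR with the block called 0 isolated sites in each comparison.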
